A study of Mus musculus with 8 samples.

Results

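N6-methyladenosine (m6A) peaks inside coding sequence were taken from the 1 peak list of the MeRIP-Seq experiment, in which fragmented RNA is pulled down with an antibody against m6A and compared with input RNA. A peak was called CDS-internal when its summit, the position of highest signal, lay in the coding sequence (CDS) of the coding transcript with the longest CDS of its gene (mm9, GENCODE vM1) and more than 200 nt upstream of the stop codon along the mature transcript. This placed 4198 of the 10160 peaks, in 2874 genes. Their share was 41.3% of all peaks (95% Wilson interval 40.4% to 42.3%) and 49.9% of the 8419 summits that lay on such a transcript. A further 2579 peaks lay within 200 nt of a stop codon, 1193 farther down the 3′UTR and 449 in the 5′UTR. The intervals cover counting error only, because 1 list stands for all MeRIP-Seq samples and no replicate can be compared.

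The MeRIP-Seq samples were 2 m6A immunoprecipitates and 2 inputs from wild type C57BL/6 bone marrow mesenchymal stem cells (MSCs). The RNA-seq samples were 2 libraries of MSCs labelled wild type, which in the study are Mettl3fl/fl, and 2 of MSCs labelled Prx1-cre;Mettl3fl/fl. Prx1-Cre acts in the limb mesenchyme and its descendants, so cells of other origin in a culture keep Mettl3. Every sample had spent 2 days in osteogenic medium, which held dexamethasone (100 nM), ascorbic acid (50 µg/ml) and, as a phosphate source, β-glycerophosphate (5 mM). The 4 RNA-seq libraries held 23978099 to 34106693 estimated counts. Mesenchymal markers were present, with 7 of 8 at a TPM (transcripts per 1000000) of 1 or more in every library and a summed level of 686 to 796 TPM, and the niche marker Lepr below 1 TPM. All 5 macrophage markers were present as well, at a summed 16026 to 23420 TPM, most of it Lyz2, so that the cultures labelled MSCs held macrophage RNA. Erythroid markers summed to at most 0.31 TPM, endothelial markers to at most 2.55 TPM and neutrophil markers to at most 19.0 TPM.

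m6A is written onto mRNA in the nucleus by a complex of Mettl3 and Mettl14 with Wtap, Virma, Zc3h13 and Rbm15 proteins, mostly at DRACH motifs, of which GGAC is a frequent core. Readers of the YTH family bind the mark and influence splicing, translation and decay. The mark is best known near stop codons and in 3′UTRs, and it is also found in long internal exons. Exon junction complexes deposited during splicing are known to keep the methyltransferase away from short exons and from the ends of exons.

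GGAC sequences nearest to the summit are shown for the most significant peak (highest −log10 q) of the genes with the most CDS-internal peaks and for 4 of the most enriched peaks in genes that the control RNA-seq libraries expressed. The last 4 were picked with their values in view. Each run is 28 nt of the coding strand read 5′ to 3′ from mm9, and the capitals mark the GGAC nearest to the summit.
Ahnak, chr19:9091527-9091554: agcaccaagcatGGACtttaacttggaa
Fat1, chr8:46036233-46036260: gattctggctgcGGACcgggggatgaag
Map1a, chr2:121126729-121126756: gtcttcaccagaGGACctcacacaggac
Ankrd11, chr8:125419225-125419252: cagactcctcaaGGACgggactgaccag
Sema3c, chr5:17233336-17233363: agtggtccccgtGGACatgggctggctc
Cnnm3, chr1:36568846-36568873: gcgccgggcgcgGGACtgctgaacttct
Sparcl1, chr5:104521682-104521709: tacagagcagcaGGACcaagaagggaaa
Hr, chr14:70956393-70956420: ccaaggccccaaGGACacactctcactg
All 8 lie inside 1 exon. The methylated base in this motif is the A, and it lay between 2 nt (Ankrd11) and 27 nt (Ahnak) from the summit. No GGAC lay within 50 nt of the most significant Zfhx3 summit, so none is shown for that gene.

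CDS-internal summits lay in long exons. The exon that held the summit had a median length of 1399 nt (quartiles 675 and 2721 nt, range 35 to 17497 nt). Exons of 400 nt or more held 89.9% of the summits (3773 of 4198, 88.9% to 90.8%), against 61.1% if every summit were placed evenly over the eligible coding bases of its own transcript. Exons under 200 nt held 2.26% (95 summits, 1.85% to 2.76%) against 27.1% under even placement. The share in exons of 400 to under 1000 nt was 28.4% against 16.2%, and in exons of 1000 nt or more it was 61.5% against 44.9%. Even placement is a calculation from the gene models and not a measured control.

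**Figure D1:**
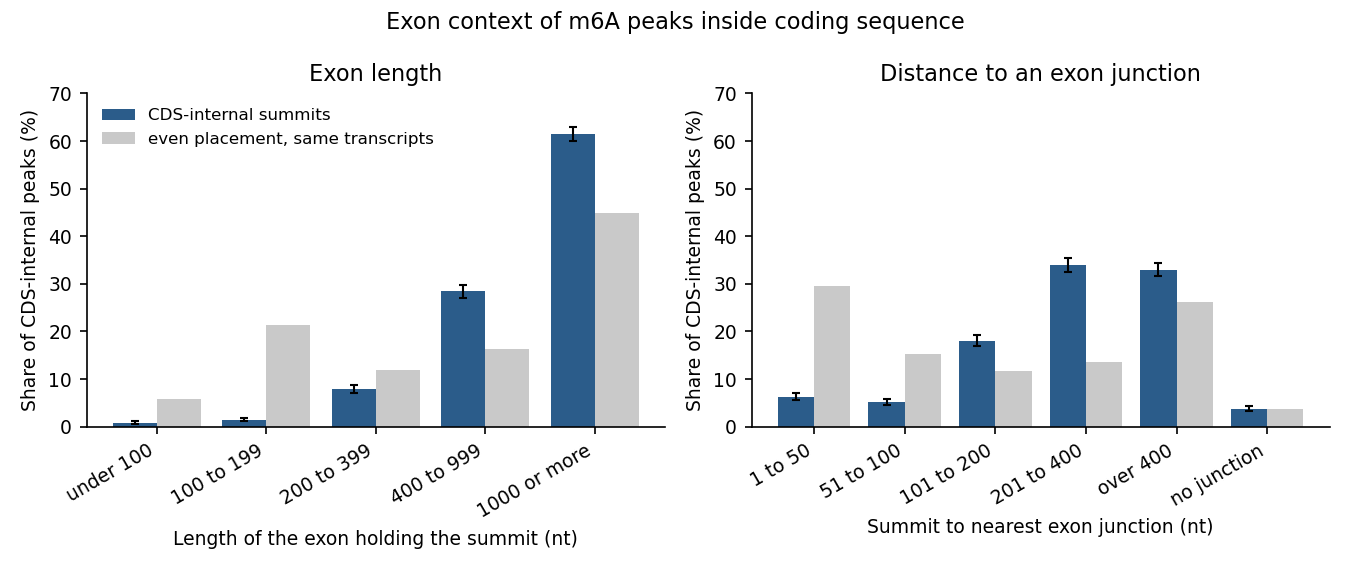
Share of the 4198 CDS-internal summits (blue, with 95% Wilson intervals) by the length of their exon in nt (left) and by the distance in nt to the nearest exon junction along the transcript (right), beside the share under even placement over the same coding sequences (grey). Exons under 200 nt and the first 100 nt next to a junction hold fewer summits than even placement gives, and exons of 400 nt or more hold more.

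The listed summits were also sparse near exon junctions. Peaks were called along the genome, and those in exons under 100 nt had a median width of 213 nt, more than the exon itself. How this bears on short exons and exon ends was not tested. Of all CDS-internal summits, 70.7% (2966, 69.3% to 72.0%) lay more than 200 nt from the nearest junction or in a transcript without one, against 43.5% under even placement. Only 6.19% (260 summits) lay within 50 nt of a junction, against 29.5%. The ratio of observed to even placement was 0.210 within 50 nt, 0.332 at 51 to 100 nt, 1.54 at 101 to 200 nt, 2.48 at 201 to 400 nt and 1.26 beyond 400 nt. In internal exons of 1000 nt or more, the 945 summits were a median 829 nt from the upstream junction and 833 nt from the downstream one. Of these, 48.3% (456, 45.1% to 51.4%) were nearer to the upstream junction, so they leaned to neither end beyond counting error.

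By exon number, 2309 summits (55.0%) lay in internal exons against 64.8% under even placement. The last exon held 1395 (33.2% against 23.3%), the first exon 338 (8.05% against 8.20%) and single-exon transcripts 156 (3.72%). Internal and first exons showed the length pattern without the last and single ones. Among their 2647 summits, 84.2% lay in exons of 400 nt or more (82.7% to 85.5%), against 50.9% under even placement. With each CDS cut into 10 equal parts, part 1 held 10.8% of the summits against 11.3% under even placement, part 3 held 9.67% against 11.3%, and part 9 held 10.9% against 8.67%. Position along the coding sequence thus departed less from even placement than exon length did, with a tilt towards the 3′ side.

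The longest exons with a CDS-internal peak illustrate how much of the count single exons can carry. Ahnak encodes a giant scaffold protein beneath the plasma membrane. Its last exon, exon 5 of 5 (chr19:9076189-9093685), spans 17497 nt and held all 13 of its peaks, the most of any gene. Pura, a nucleic acid binding protein of neurons, had 1 peak in exon 2 of 2 (14490 nt), 390 nt before the stop codon. Usf3 had 3 CDS-internal peaks and Zbtb1, a BTB zinc finger protein, had 2, the most significant in last exons of 12051 and 11725 nt.

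Most genes had a single CDS-internal peak, 2025 of 2874 (70.5%). Another 577 genes had 2, 163 had 3, and 109 had 4 or more. The 849 genes with several held 2173 of the peaks. Neighbouring summits of 1 gene were a median 791 nt apart along the transcript (quartiles 532 and 1239 nt, 1324 gaps), and the closest pair was 153 nt apart. These peaks shared exons to a large extent, with the 4198 summits in 3417 exons, of which 574 held at least 2.

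In Ahnak, the 13 summits ran from 456 to 16695 nt after the start codon, with fold enrichment over the local background between 2.00 and 2.86. Fat1, an atypical cadherin, had 10 in 6 exons, of which 4 lay in its exon of 4068 nt, at 2.15- to 3.42-fold. Zfhx3, a zinc finger homeobox factor, had 9 in 4 exons at 2.28- to 5.31-fold. Ankrd11, a chromatin cofactor, had 8, all in exon 11 of 15 (chr8:125413539-125420056, 6518 nt), at 1.85- to 3.57-fold. Map1a, a microtubule-associated protein, had 8, all in exon 5 of 7 (chr2:121125005-121133108, 8104 nt), at 2.18- to 3.70-fold. In Ahnak, Ankrd11 and Map1a the exons beside the long one held no CDS-internal summit in the list. The long exon begins 345 nt after the start codon in Ahnak (CDS 16968 nt). It spans 955 to 7473 nt in Ankrd11 (7992 nt) and 564 to 8668 nt in Map1a (9042 nt). Few summits would fall outside it under even placement, so the absence says little about short exons.

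**Figure D2:**
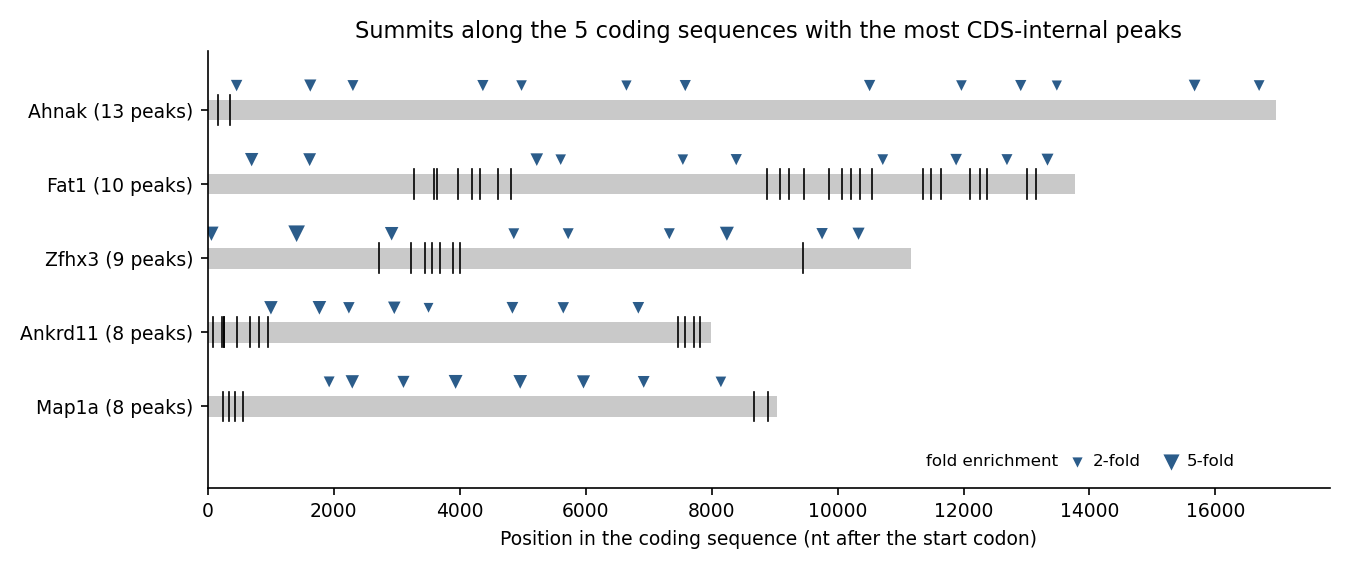
CDS-internal summits (triangles, area proportional to fold enrichment) along the coding sequences (grey bars) of the 5 genes with the most of them, in nt after the start codon, with exon junctions as black ticks. All 13 summits of Ahnak and all 8 of Ankrd11 and of Map1a fall in 1 exon, and those of Fat1 in 6 exons.

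GGAC lay within 50 nt of 61.7% of CDS-internal summits (2591, 60.2% to 63.2%), against 40.2% under even placement. Within 25 nt the share was 39.9% against 22.7%. AGAC was found within 50 nt of 48.3% against 38.8%, GAAC of 38.9% against 34.1% and AAAC of 28.3% against 29.1%, so the excess fell from GGAC to AAAC. At least 1 of these motifs, of 4 letters each on the coding strand, lay within 50 nt of 94.6%. The share with GGAC was 63.9% (62.1% to 65.8%) for peaks at stop codons and 60.9% (58.1% to 63.7%) for peaks in the distal 3′UTR, and these intervals overlap that of the CDS-internal peaks. A motif match is a description of the sequence and does not mark the methylated base.

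The reading frame of the motif did not set these peaks apart from their own coding sequences. Of 2613 GGAC copies nearest to a summit, 58.2% were read with GAC, an aspartate codon, as the last 3 letters. All GGAC copies in the same coding sequences gave 58.1%. The base after GGAC did differ. It was T in 30.3% of the nearest copies (28.5% to 32.1%) against 24.1% of all copies, A in 34.7% against 33.6%, C in 24.5% against 28.8%, and G in 10.6% against 13.5%. Thus T was over-represented and G and C under-represented next to the motif, relative to all copies, which is a count without replicates.

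The median fold enrichment of CDS-internal peaks was 3.84 (quartiles 2.93 and 5.15), with a median pileup of 64 fragments at the summit. Peaks at stop codons had a median of 3.60 and those in the distal 3′UTR of 3.94. In the 698 genes with both a CDS-internal and a stop codon peak, the most significant CDS-internal peak had a median of 3.83 and the most significant stop codon peak 3.67, and the CDS-internal one was the higher in 52.6% (48.9% to 56.3%). Since a gene can hold several CDS-internal peaks but seldom more than 1 at the stop codon, this choice does not describe coding peaks in general. Of the 2874 genes, 1979 (68.9%) had no listed peak at the stop codon or in the distal 3′UTR. Median enrichment was lower in exons under 400 nt, without a steady rise, at 2.75 in exons under 100 nt (33 peaks), 3.35 from 100 to under 200 nt (62 peaks) and 3.09 from 200 to under 400 nt (330 peaks). It was 3.90 from 400 to under 1000 nt (1193 peaks) and 3.91 in exons of 1000 nt or more (2580 peaks). Genes above 100 TPM had 280 peaks at a median of 2.58-fold, 31.1% of them in exons of 200 to under 400 nt. Over all CDS-internal peaks such exons held 7.86%. The part of RNA level in the lower medians was not tested. At the edge of the definition, the 46 summits 201 to 210 nt before a stop codon had a median of 4.34-fold and the 54 coding summits 190 to 200 nt before one had 3.55-fold.

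The highest fold enrichments lay in genes that the RNA-seq libraries barely contained, mostly of skin epithelium and, for Myh4, of muscle. Krt5, the keratin of basal keratinocytes, had the strongest peak at 43.3-fold (−log10 q 97.4), in exon 7 of 9, of 221 nt, 13 nt from a junction. Krt10, the keratin of differentiating keratinocytes, reached 28.6-fold in an exon of 218 nt. Trim29 reached 26.1-fold, Krt15 24.5-fold, Dsp, the desmosomal plaque protein desmoplakin, 21.1-fold, and Myh4, a fast skeletal muscle myosin, 20.2-fold. Krt17, Lgals7 and Evpl were also among the 10 genes with the strongest peaks, at 15.7- to 19.3-fold. Of these 10 genes, 9 were listed at a mean of at most 0.115 TPM in the control libraries, and Krt10 at 1.76 TPM. Of these 10 peaks, 4 had GGAC within 50 nt.

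A list of 30 skin epithelial genes, chosen after these values were seen, held 41 CDS-internal peaks in 25 genes, with a median of 11.6-fold, and 23 of the 50 strongest. In the RNA-seq libraries 27 of its 30 genes were below 1 TPM in every library, 10 were listed at 0 in all, and the list summed to 6.66 to 10.4 TPM. A list of 14 skeletal muscle genes, chosen in the same way, held 3 of the 50 strongest. Its 8 CDS-internal peaks lay in Myh1, Myh2, Myh4 and Tnnt3, and its other genes had none. None of those 8 lay in an exon of 400 nt or more, and the list summed to 6.22 to 11.6 TPM. The MeRIP-Seq and RNA-seq samples were separate preparations, the RNA levels of the MeRIP-Seq inputs were not analysed here, and the source of this signal was not tested. Without the peaks of genes below 1 TPM, 90.3% of CDS-internal summits lay in exons of 400 nt or more and the median fold enrichment was 3.75.

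Among genes at 1 TPM or more, the strongest peaks after Krt10 included those in Sema3c, a secreted semaphorin (14.7-fold, last exon of 2926 nt), and Cnnm3, a magnesium transport mediator (14.7-fold, first exon of 1287 nt). Sparcl1, a matricellular protein related to osteonectin, had 13.2-fold in an exon of 996 nt. Gm5431, a gene with close copies, had 14.7-fold, and its reads may be shared with them. Hr, the hairless corepressor, had 12.3-fold in its first exon of 1101 nt. These genes were listed at 2.76 to 7.56 TPM and were also picked with their values in view.

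Among the listed peaks, fold enrichment fell as the RNA level of the gene rose. The median of CDS-internal peaks was 6.98 for genes at up to 0.1 TPM (84 peaks), 5.04 at over 1 to 5 TPM (675 peaks), 4.0 at over 5 to 20 TPM (1771 peaks) and 2.58 above 100 TPM (280 peaks). Stop codon peaks had medians of 6.72, 5.18, 4.04 and 2.42 in the same ranges, so the fall was not limited to coding peaks. For CDS-internal peaks, median pileup was 15.5 at up to 0.1 TPM and 131 above 100 TPM. The lowest listed fold was 2.59 and 1.52, and the median −log10 q 11.1 and 16.6. Only peaks that passed the caller are listed, and how this bears on the fall was not tested. The share in exons of 400 nt or more was 97.5% at over 1 to 5 TPM, 95.1% at over 5 to 20 TPM and 87.3% at over 20 to 100 TPM. Above 100 TPM it was 55.7% (49.9% to 61.4%), against 40.4% under even placement, and at up to 0.1 TPM it was 69.0% (58.5% to 77.9%) against 56.7%.

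**Figure D3:**
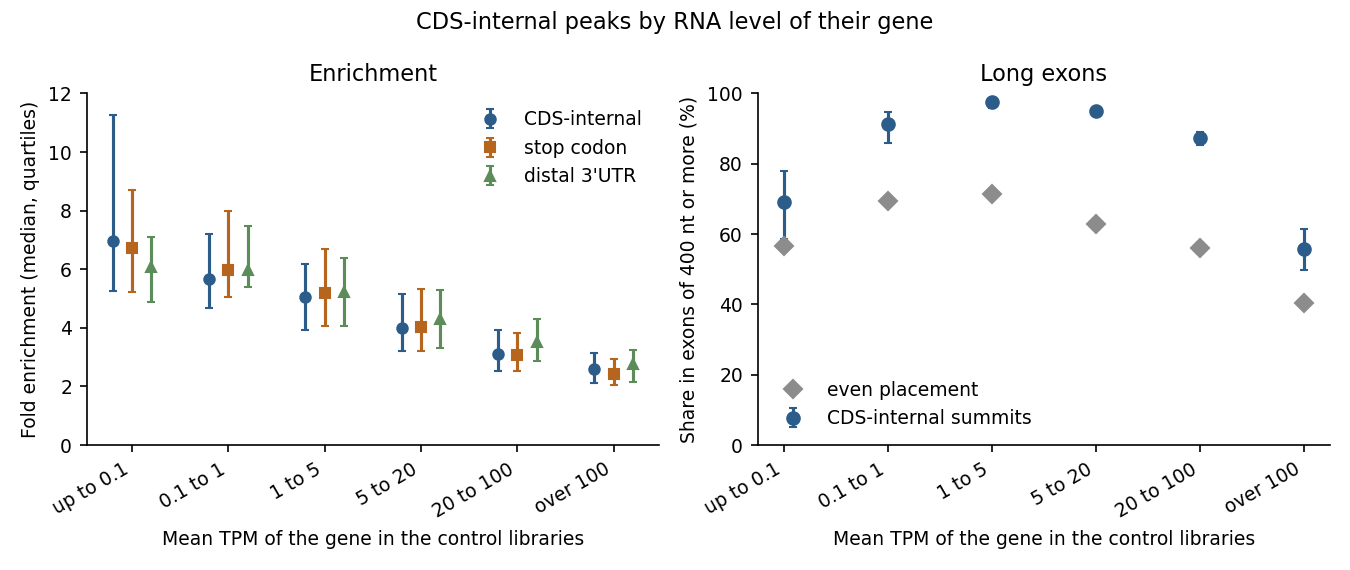
Left, fold enrichment (median with quartiles) of CDS-internal, stop codon and distal 3′UTR peaks by the mean TPM of their gene in the control RNA-seq libraries. Right, share of CDS-internal summits in exons of 400 nt or more (95% Wilson intervals) beside even placement (grey). Enrichment of the listed peaks falls with the RNA level in each kind of peak, and the long-exon share is lowest, at 55.7%, in genes above 100 TPM.

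The most abundant transcripts held a large part of the peaks in short exons. Genes above 100 TPM held 280 CDS-internal peaks, of which 37 (13.2%) lay in exons under 200 nt. The corresponding count was 33 of 1194 at over 20 to 100 TPM and 1 of 675 at over 1 to 5 TPM. Even placement gave 39.0% above 100 TPM, 31.1% at over 20 to 100 TPM and 19.9% at over 1 to 5 TPM. Examples, picked with their values in view, were S100a4, a calcium-binding protein at 5704 TPM, with a 3.56-fold peak in an exon of 156 nt, and Ctss, the lysosomal protease cathepsin S of macrophages at 1941 TPM, with a 4.88-fold peak in a first exon of 140 nt. Fn1, the matrix protein fibronectin, had 4, among them a 2.48-fold peak in an exon of 177 nt, and Col1a2, a chain of type I collagen, had its only one in an exon of 54 nt (2.80-fold). Without genes above 100 TPM, 92.3% of CDS-internal summits lay in exons of 400 nt or more.

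Gene classes differed widely in how many members carried a CDS-internal peak. Of all 11966 genes with a model and a mean of at least 1 TPM in the control libraries, 2658 (22.2%, 21.5% to 23.0%) had one, at 2.06 peaks per 10 kb of eligible coding sequence. The longest stretch of coding sequence in 1 exon separated these genes most clearly. It was 1.73% (70 of 4051 genes) where that stretch was under 200 nt and 8.84% (363 of 4107) from 200 to under 400 nt. It was 49.4% (1216 of 2463) from 400 to under 1000 nt, 72.2% (728 of 1009) from 1000 to under 2000 nt and 83.6% (281 of 336) at 2000 nt or more. Per 10 kb of eligible coding sequence, the density over these classes was 0.226, 0.578, 3.15, 4.55 and 4.45 peaks. Among genes with a CDS of 4000 nt or more, only 18 of 246 (7.32%) without a stretch of 400 nt had a CDS-internal peak, against 454 of 580 (78.3%) with one.

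Beside each class below, the peak named is the most significant one of its expressed genes, by −log10 q, and higher folds occur in some classes. Chromatin regulators stood highest, with 42 of 45 (93.3%, 82.1% to 97.7%) and 3.51 peaks per 10 kb. Their median CDS was 5766 nt and their median longest coding stretch 1260 nt. All expressed genes with a stretch of 1000 to under 2000 nt had 72.2%, at 4.55 per 10 kb. Those with a CDS of 4000 nt or more and a stretch of at least 400 nt had 78.3%, at 3.00 per 10 kb. Kmt2d, a histone H3K4 methyltransferase, had 7, the most significant at 6.05-fold in exon 40 of 55 (2952 nt). Zbtb genes followed with 25 of 33 (75.8%), at 7.31 peaks per 10 kb, the highest density of the classes. Their median longest stretch was 1177 nt, and of all expressed genes with a stretch of 1000 to under 2000 nt 72.2% had a peak. Zbtb21 had 5 and Zbtb4 had 2, the more significant at 3.60-fold in its last exon. Of the Zfp zinc finger genes, 132 of 258 (51.2%, 45.1% to 57.2%) had a CDS-internal peak, at 4.58 per 10 kb. Zfp316 had 3, the most significant at 5.47-fold in its last exon of 5869 nt. Zfp genes usually carry their finger array in a long exon, and their median longest stretch was 1198 nt against 249 nt over all expressed genes. At a stretch of 1000 to under 2000 nt, 73 of 130 Zfp genes (56.2%) had a CDS-internal peak against 655 of 879 other genes (74.5%), with a median of 3.97 TPM against 9.56 TPM. At 2000 nt or more, the counts were 25 of 28 (89.3%) and 256 of 308 (83.1%).

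Cytolinkers and giant scaffolds had 17 of 24 genes with a CDS-internal peak (70.8%, 50.8% to 85.1%), at 2.47 per 10 kb. Among them was Ahnak2, with the broadest named peak at 6077 bp. The class had a median longest coding stretch of 2225 nt. All expressed genes with a stretch of 2000 nt or more stood higher, at 83.6% and 4.45 per 10 kb. Lrp and Notch receptors had 9 of 13 (69.2%, 42.4% to 87.3%), at 2.28 per 10 kb, with Lrp3 named (6.56-fold). Their median CDS was 4842 nt. Of all expressed genes with a CDS of 4000 nt or more 57.1% had a CDS-internal peak, at 2.20 per 10 kb. The cadherin superfamily had 10 of 17 (58.8%, 36.0% to 78.4%), with the protocadherin Pcdh1 named (7.63-fold) and Pcdhb22 higher by fold (8.12-fold). Its median longest stretch was 2197 nt and its density 3.60 per 10 kb, also below all expressed genes at 2000 nt or more. Ubiquitin-specific proteases had 17 of 42 (40.5%, 27.0% to 55.5%), with Usp10 named (7.11-fold), at 1.89 per 10 kb. Kinesins had 9 of 29 (31.0%, 17.3% to 49.2%), an interval that includes the 22.2% of all genes, at 1.09 per 10 kb, with Kif13b named (4.01-fold) and Kif14 higher by fold (5.66-fold). The transcription factors of the Fox, Sox, Hox, Tbx and Klf families had 16 of 60 (26.7%, 17.1% to 39.0%), with Klf9 named (5.87-fold). They have few exons, a median of 3 against 9 over all expressed genes, at a median CDS of 1309.5 nt against 1365 nt.

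Several classes had a smaller share than the 22.2% of all expressed genes. The median longest coding stretch was 249 nt over all expressed genes. It was 135 nt in cytosolic ribosomal proteins, 118 nt in oxidative phosphorylation, 172 nt in proteasome subunits and 271 nt in solute carriers. Cytosolic ribosomal proteins had 3 of 71 genes (4.23%, 1.45% to 11.7%), at a median of 1313 TPM, with Rpl36al named (2.51-fold). Oxidative phosphorylation had 1 of 69, Ndufv3, whose peak lay in exon 3 of 4, of 1092 nt. Proteasome subunits had 3 of 37, with Psmd7 named (4.04-fold). Solute carriers had 28 of 197 (14.2%), with Slc45a4 named (6.63-fold) and Slc45a3 higher by fold (7.62-fold). The matrix genes had shares above 22.2%, with intervals that include it, but fewer peaks per 10 kb than the 2.06 of all expressed genes. Collagen chains had 8 of 27 (29.6%, 15.9% to 48.5%), with 1.32 peaks per 10 kb over a median of 51 exons. Their 16 CDS-internal peaks included 4 in exons under 200 nt. Col8a1, with a long last exon of 4560 nt, had the most significant one (3.21-fold). Matrix glycoproteins had 7 of 26 (26.9%, 13.7% to 46.1%), at 0.981 per 10 kb. Emilin1, an elastic fibre protein, was named (2.86-fold), and Vcan, the proteoglycan versican, was higher by fold (8.46-fold).

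**Figure D4:**
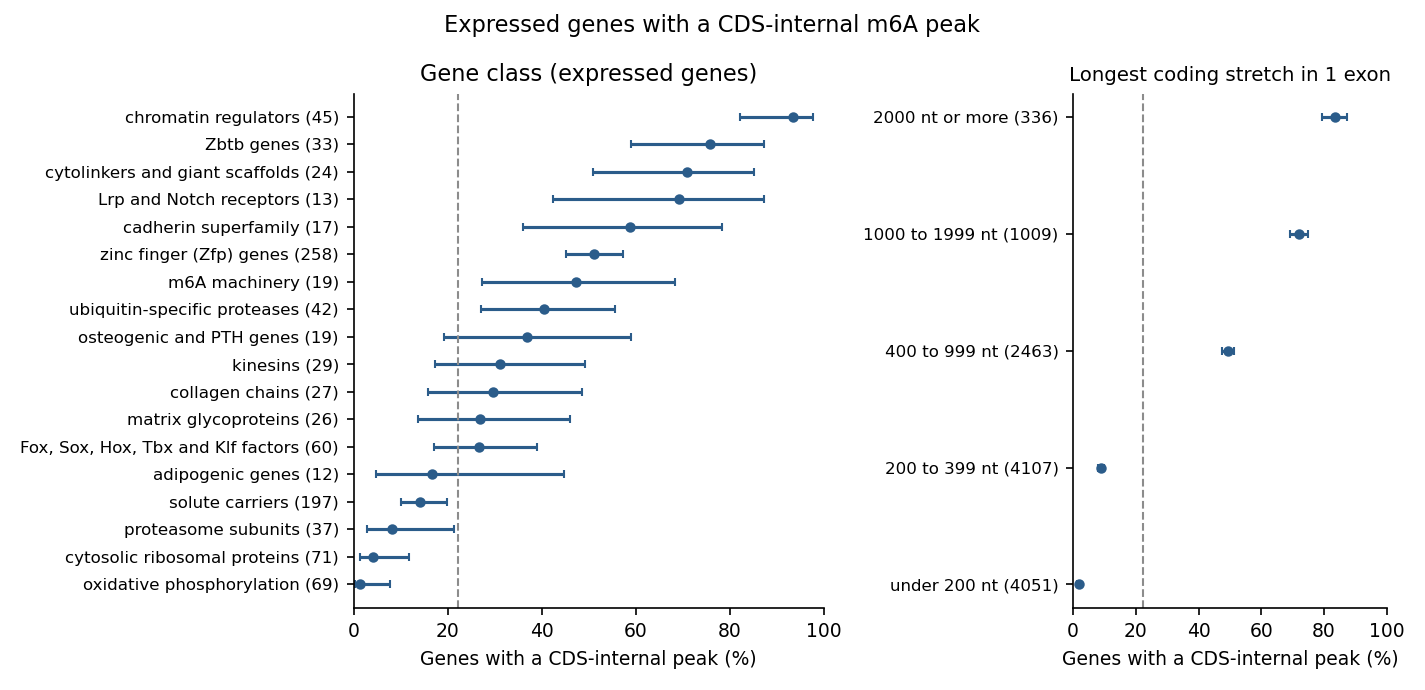
Share of expressed genes with a CDS-internal peak (points, 95% Wilson intervals) by gene class (left) and by the longest stretch of coding sequence in 1 exon (right), with the number of expressed genes in parentheses. The dashed line marks the 22.2% of all expressed genes. Chromatin regulators reach 93.3%, and genes without a stretch of 200 nt reach 1.73%.

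The genes of the m6A machinery had listed peaks in their own coding sequences. Of 19 expressed genes, 9 had a CDS-internal peak (47.4%, 27.3% to 68.3%), at 5.27 per 10 kb. Over all expressed genes the share was 22.2%. The median longest coding stretch of the class was 427 nt. Of all expressed genes with a stretch of 400 to under 1000 nt 49.4% had a CDS-internal peak, at 3.15 per 10 kb. Virma, listed as 1110037F02Rik and a scaffold of the methyltransferase complex, had 4 (most significant 7.99-fold), and its zinc finger subunit Zc3h13 also had 4 (most significant 3.40-fold). Rbm15, an RNA-binding recruiter, had 2, Wtap, the adaptor, had 2, and the cytoplasmic readers Ythdf1 and Ythdf2 had 2 each. Ythdf3, the nuclear reader Ythdc1 and the demethylase Fto had 1 each. Rbm15b had 2 but no matching RNA level. No CDS-internal peak was listed in Mettl3.

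Of the osteogenic and PTH genes, 7 of 19 had a CDS-internal peak (36.8%, 19.1% to 59.0%), an interval that includes the 22.2% of all expressed genes. Lrp5 and Lrp6, the Wnt co-receptors of bone formation, had 2 each. In Lrp5 the most significant was 3.88-fold and in Lrp6 3.27-fold, both in exon 6 of 23, of 397 nt. Sp7, the osteoblast transcription factor osterix, had 1 at 3.76-fold in exon 2 of 2, 803 nt before its stop codon. Col1a2, Ibsp, Msx2 and Spp1 had 1 each, at 2.36- to 5.58-fold. Of the adipogenic genes, 2 of 12 had one (16.7%, 4.70% to 44.8%), and this interval also includes 22.2%. Klf15, an adipogenic Krüppel-like factor, was at 7.18-fold, and Cebpa, a master regulator of adipocytes, was at 1.66-fold with −log10 q of 2.02, and ranked 4174 of 4198 by fold enrichment. Runx2 and Pth1r had no CDS-internal peak.

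The RNA-seq comparison asks whether transcripts with coding peaks differed in level between the genotypes. Mettl3 itself had 17.6 and 16.9 CPM (counts per 1000000, TMM-scaled) in the control-labelled samples and 17.5 and 16.3 CPM in those labelled knockout (log2 fold change −0.03, SE 0.09, adjusted p = 0.82, edgeR quasi-likelihood test with Benjamini-Hochberg adjustment). Whole-gene counts include exons outside the deleted part, so they do not check the deletion. Over all 15327 genes tested with edgeR, 4677 passed an adjusted p of 0.05 (30.5%), of which 2100 (13.7% of those tested) rose and 2577 (16.8%) fell in the knockout-labelled samples.

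Among transcripts with CDS-internal peaks, more rose than fell in the knockout-labelled samples. Of 2779 tested genes with one, 727 rose (26.2%, against 13.7% of all genes) and 333 fell (12%, against 16.8%) in edgeR, with a median log2 fold change of 0.14 against −0.0038 over all genes. The share of genes higher grew with the number of peaks. It was 21.9% of 1952 genes with 1 CDS-internal peak, 32.3% of 560 with 2 and 44.6% of 267 with 3 or more, while 13.4%, 8.75% and 8.61% were lower. The median log2 fold changes were 0.10, 0.17 and 0.27. Genes with a stop codon or distal 3′UTR peak and no CDS-internal one had 19.7% higher and 14.4% lower of 2374, and those without a peak on the transcript 9.56% higher and 21.6% lower of 8099.

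**Figure D5:**
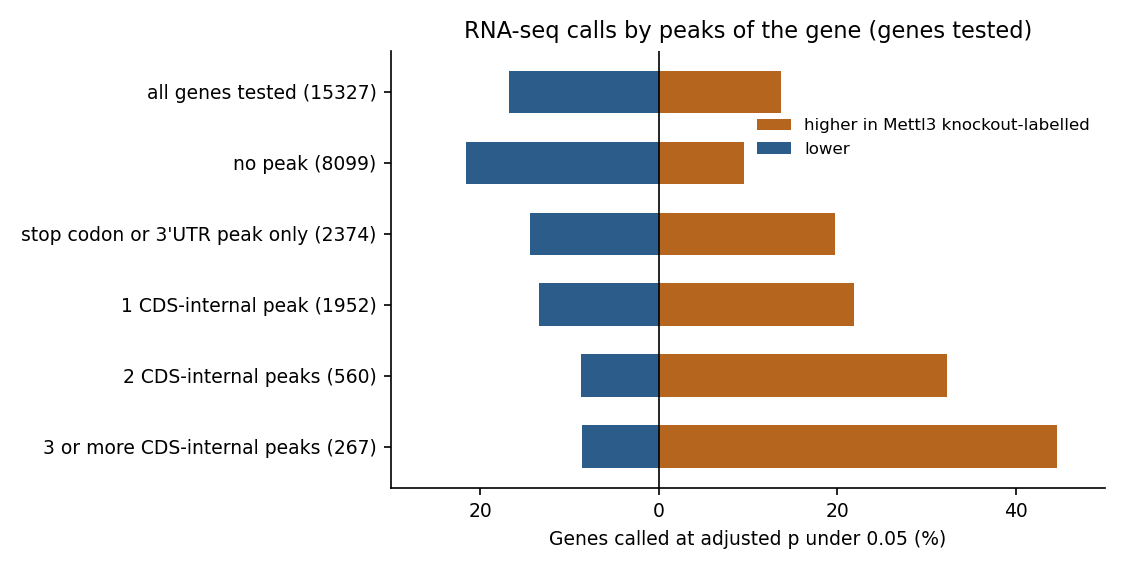
Share of tested genes called higher (right, orange) or lower (left, blue) in the Mettl3 knockout-labelled libraries at an adjusted p under 0.05 (edgeR), by the peaks of the gene, with the number of genes tested in parentheses. The share higher is 9.56% without a peak and 44.6% with 3 or more CDS-internal peaks.

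Coding length rose with the number of CDS-internal peaks, while median levels differed little. The median CDS was 1788 nt for genes with 1 CDS-internal peak and 4674 nt for those with 3 or more, against 1395 nt over all genes with a model, and median levels were 13.7, 12.5 and 14.2 TPM. Among genes whose longest coding stretch was at least 1000 nt, 34.2% of 1077 with a CDS-internal peak were higher and 9.47% lower, against 17.6% and 15.8% of 557 without one. The median level was 9.495 TPM with one and 1.635 TPM without. The part of length and level in the difference was not tested. Cell type markers moved in both directions. Of the 8 mesenchymal markers 4 rose and 3 fell in edgeR, with Thy1 from 1.65 and 3.50 TPM to 65.22 and 69.98 TPM, and the list summed to 714 and 796 TPM in control-labelled and 686 and 698 TPM in knockout-labelled libraries. Of the 5 macrophage markers 1, Ptprc, passed the test, and it rose. That list summed to 16026 and 21489 TPM against 23250 and 23420 TPM, mostly Lyz2, which did not pass (adjusted p = 0.34, edgeR). The part of these cell types was not tested either. In such bulk RNA, fewer cells of a type and less RNA per cell cannot be told apart.

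Nothing in the labels says that the libraries of a group came from separate cultures or animals, so these p-values measure the spread between libraries, which may be technical. Counts of the knockout-labelled pair differed little beyond sampling noise, with a chi-square of 1.82 per degree of freedom against 32.6 for the control-labelled pair. The number of genes called therefore hung on the library left out. Without control-labelled replicate 1 or 2 it was 1911 or 1807 of the genes with a CDS-internal peak, and without knockout-labelled replicate 1 or 2 it was 423 or 413, against 1060 with all libraries. Over all genes tested, the share called ran from 11.8% to 55.8% in the same fits. Without each of these 4 libraries in turn, more of these genes were higher than lower.

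Gene classes differed in direction, against 13.7% higher and 16.8% lower over all genes. Of the 42 chromatin regulators with a CDS-internal peak, 30 were higher and 1 lower (median log2 fold change 0.31), and of the whole class 31 of 46 were higher (median 0.30). Of 138 Zfp genes with one, 47 were higher and 5 lower (median 0.30), and of the whole class 72 of 298 were higher and 11 lower (median 0.28). Of 26 Zbtb genes with one, 8 were higher and 2 lower (median 0.26), and of the whole class 13 of 34 were higher and 2 lower (median 0.29). Of 18 cytolinkers and giant scaffolds 9 were higher (median 0.43), and of the whole class 12 of 26 (median 0.31). Whether class members with and without a CDS-internal peak differed was not tested. Collagen chains went the other way, with 1 higher and 6 lower of 8 (median −1.21), and 10 higher and 19 lower of the whole 36 (median −0.66). Of 7 osteogenic and PTH genes with a CDS-internal peak, 4 were lower (median −0.94), and the whole list of 19 had 1 higher and 12 lower. Of 9 m6A machinery genes with one, 1 was higher.

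The largest rises among genes with a CDS-internal peak were in Tnxb, Cilp, Tenm3, Dcbld2 and Dennd2a. Tnxb, the matrix glycoprotein tenascin X, had 1.36 and 1.70 CPM in control-labelled and 13.9 and 14.5 CPM in knockout-labelled libraries (log2 fold change 3.22, SE 0.16, adjusted p = 5.4e-05, edgeR). Tenm3, a teneurin adhesion receptor, had 6.27 and 5.83 against 38.0 and 35.0 CPM, and Dcbld2, a membrane protein of the neuropilin type, 38.4 and 34.5 against 201 and 204 CPM. Dennd2a, a regulator of Rab GTPases, had 7.18 and 7 against 38.9 and 38.4 CPM. The groups did not overlap for these genes, since that was part of how they were chosen. Cilp, a cartilage matrix protein, was near its detection limit, with 0.207 CPM and 0 against 1.28 and 0.878 CPM (adjusted p = 0.027, edgeR), and its call was lost without knockout-labelled replicate 1 (adjusted p = 0.099, edgeR).

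The largest falls were in Susd5, Col10a1, Nr4a1, Fcgbp and Ngfr. Susd5 had 24.5 and 29.1 CPM in control-labelled and 0.371 and 0.439 CPM in knockout-labelled libraries (log2 fold change −6.02, SE 0.19, adjusted p = 1.1e-05, edgeR). Col10a1, the collagen of hypertrophic chondrocytes, had 62.7 and 96.0 against 1.98 and 1.88 CPM. Nr4a1, an immediate early nuclear receptor, had 274 and 291 against 7.67 and 8.84 CPM, and Fcgbp, with 5 CDS-internal peaks, had 1.74 and 4.56 against 0.206 and 0.063 CPM. Ngfr, the nerve growth factor receptor and a stromal surface marker, had 5.35 and 7.78 against 0.619 and 0.220 CPM. Of the genes that the study follows, Sp7 fell from 6.47 and 8.77 to 2.23 and 2.32 CPM (log2 fold change −1.74, SE 0.21, adjusted p = 0.0019, edgeR). Cebpa rose from 213 and 223 to 334 and 350 CPM (log2 fold change 0.65, SE 0.06, adjusted p = 0.00072, edgeR). Lrp5, with 93.7 and 85.7 against 93.8 and 94.3 CPM, did not pass the test (adjusted p = 0.49, edgeR), but did so without control-labelled replicate 1 (adjusted p = 0.0030, edgeR).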

How the data were processed

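MeRIP-Seq (2 m6A immunoprecipitates, 2 inputs) and RNA-seq (2 control-labelled, 2 knockout-labelled libraries) of mouse MSCs were analysed. The authors deposited 1 peak list. Its deposited pileup signal counts fragments over the summit. As deposited, fold enrichment is the caller's ratio to the local background. Significance was deposited as the −log10 q-value of the caller. The submitters' processing notes name TopHat, MACS2, HISAT2 2.0.4, mm9 and mm10 without roles. Whether samples were pooled is not given in the sources used here. Summits lay inside a protein-coding gene for 91.1% with mm9 models and 49.7% with the GRCm38 positions of the expression table, so mm9 was used. Peaks were called along the genome, and how this bears on short exons was not tested. The authors deposited estimated counts per gene, and values headed FPKM that sum to 1000000 per library, so these deposited values are TPM.

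Summits were placed on GENCODE vM1 transcripts. Where a summit lay on 2 genes (34 peaks), coding sequence and then the gene with more counts had precedence. Of the CDS-internal peaks, 23 lie on models without an annotated stop codon, where the end of the CDS was used, 32 have no matching TPM, and 3 on the mitochondrial genome are left out of the counts of expressed and RNA-seq genes. Even placement averages, over peaks, the share of eligible coding bases of the same transcript, and was tested on simulated data. Shares have 95% Wilson intervals. Estimated counts were rounded, entries without a gene name (0.110% to 0.125% of counts) left out, genes filtered with filterByExpr, scaled by TMM and tested two-sided with edgeR 4.0.16 without a block. On simulated counts for 15064 genes, 98 of 100 genes changed by 1 and 60 of 100 changed by 0.5 (log2) were recovered, with 18 false calls. Alternatives are in the closing section, DESeq2 1.42.0 among them.

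The 18 gene classes were defined by symbol. The members, lists and tests were chosen with earlier results of these data known. Named genes are the 10 highest fold enrichments (1 per gene), the 5 genes with the most CDS-internal peaks and the 5 in the longest exons, genes the study names, the highest −log10 q of each class, and the 5 largest rises and falls at an adjusted p under 0.05, where every library of 1 group held 10 counts or more and the groups did not overlap. Others were picked with their values in view. Some genes that this rule names are not reported here.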

Additional observations from a re-analysis of the deposited data

How the results depend on the processing

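Under every alternative run, the shares in exons of 400 nt or more, over 200 nt from a junction and with GGAC within 50 nt stayed above even placement. With only peaks of −log10 q of at least 10, the shares were 42.8% of all peaks CDS-internal, 90.9% in exons of 400 nt or more, 72.9% over 200 nt from a junction and 64.7% with GGAC, the median fold enrichment was 4.03, and 32.2% of expressed Zfp genes had a peak (17.2% of all expressed genes). With fold enrichment of at least 4, the values were 37.4%, 93.2%, 74.0%, 65.0% and 5.28. With the midpoint of the peak in place of the summit, 93.4% lay in exons of 400 nt or more, 74.1% over 200 nt from a junction and 54.0% near GGAC (even placement 40.2%). With 1 peak per gene, 68.6% lay over 200 nt from a junction and the median fold enrichment was 4.12. With a limit of 400 nt before the stop codon, 34.9% of all peaks were CDS-internal and the median was 3.79. Without the last exon, 84.2% lay in exons of 400 nt or more. Exon limits of 250 and 1000 nt gave 95.6% and 61.5%, a junction limit of 100 nt gave 88.7%, and motif windows of 25 and 100 nt gave 39.9% and 81.4%. With no filter on expression, 41.5% of 337 Zfp genes had a peak (13.0% of all genes). Among alternatives chosen after seeing the data, leaving out genes under 1 TPM gave a median of 3.75, and leaving out genes over 100 TPM gave 92.3%, 72.7% over 200 nt from a junction and a median of 3.95. No deposited peaks overlapped or touched, so merging changed nothing.

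With the replicate number as a block, 1127 genes with a CDS-internal peak were called, 784 higher and 343 lower, against 1060, 727 and 333. The labels give the groups the same numbers only, and same-numbered libraries did not deviate together (correlation 0.03 over 15327 genes), so the numbers were not taken as pairs. Leaving out 1 library gave 413 to 1911 genes called, 234 to 1342 higher and 178 to 569 lower, where the lone library of a group is assumed to vary like the other group. The share higher among those called was lowest, at 234 of 413, without knockout-labelled replicate 2. The counts with median-of-ratios scaling, no filter, DESeq2 (894) and peaks of −log10 q of at least 10 (841) stayed within 1.5 times. Over all genes tested, the same fits called between 1867 and 8750 genes, against 4677. Of 136 values for 17 named or listed genes, 9 had the opposite sign, all of them for Mettl3, Pth1r and Zfp423, which did not pass the test and carry no CDS-internal peak. Without a library, Cilp lost its call in 1 fit and Runx2 in 2, and Lrp5 gained one.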

Other observations

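Of the listed peaks in cell type marker genes, 0 of 8 mesenchymal, 2 of 6 macrophage and 1 of 3 endothelial ones were CDS-internal. Over all peaks the share was 41.3%. These counts are small, and the lists were not compared by a test. Of the 8 mesenchymal markers, Prrx1, Pdgfrb and Col1a1 had 2 listed peaks each and Pdgfra and Eng 1 each, and none of these was CDS-internal. Of the 5 macrophage markers, Cd68, a lysosomal glycoprotein, and Csf1r, the receptor for colony-stimulating factor, had 1 CDS-internal peak each, among 6 listed peaks in that list. Cdh5, an endothelial cadherin below 0.15 TPM in the RNA-seq libraries, had 1 CDS-internal peak among 3. These genes were looked up after the other values were seen.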
